A study of Mus musculus with 9 samples.

Results

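Described here are 10 genes of the AP-1 and immediate early response, taken from 40993 genes in the expression table by their names: the Fos family (Fos, Fosb, Fosl1, Fosl2), the Jun family (Jun, Junb, Jund), the zinc finger factors Egr1 and Egr2, and Ier2. They were measured by RNA sequencing in BV2 cells, an immortalized line of murine microglia, the resident macrophages of the brain. Cells were left untreated (control) or exposed over 12 h to MNPs@SiO2(RITC), magnetic nanoparticles with a cobalt ferrite core and a silica coat labelled with the dye rhodamine B isothiocyanate, at a dose of either 10 µg/ml or 100 µg/ml. Each of the 3 groups had 3 libraries of poly(A) RNA, 9 in all, and all came from the same line at 1 time point. The labels do not say whether the libraries of a group came from separate cultures, so p-values measure the spread between these libraries, which may be technical. An untreated culture was the only control, with no bare particle, silica or dye control among the samples analysed here.

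AP-1 is a dimer of basic leucine zipper proteins. Jun proteins pair with each other or with Fos proteins, while Fos proteins need a Jun partner to bind DNA at the AP-1 site or at cAMP response elements (CRE). Fos, Fosb, Egr1, Egr2 and Ier2 are classic immediate early genes: they are transcribed within minutes of a stimulus from pre-existing factors such as SRF, ELK1 and CREB, without new protein synthesis, and their transcripts are short-lived. Fosl1 and Fosl2, which lack the strong activation domain of Fos, come up later and last longer, and Jund is expressed more steadily than Jun and Junb. In macrophages and microglia, AP-1 acts together with lineage factors on genes of inflammation, migration and matrix remodelling.

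RefSeq promoter windows on GRCm38.p6, from 250 bases before to 50 after a start site, were at hand for 7 of the 10 genes, all but Fosl1, Ier2 and Egr1. The 120 bases before the start site are shown for 4 of them, 5′ to 3′ on the gene's strand. They are examples that hold letters of the elements through which these genes are known to respond. Those of Jund and of several Egr2 start sites hold such letters too and are not shown. Capitals mark matches to TGACG (the core of a CRE) or TGANNTCA (a CRE-like site). The Fos window is chr12:85473770-85473889 (plus strand), that of Fosb chr7:19310046-19310165 (minus strand), that of Jun chr4:95052223-95052342 (minus strand) and that of Junb chr8:84978749-84978868 (minus strand).
Fos: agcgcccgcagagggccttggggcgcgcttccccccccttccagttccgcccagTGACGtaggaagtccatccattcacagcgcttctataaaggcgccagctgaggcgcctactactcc
Fosb: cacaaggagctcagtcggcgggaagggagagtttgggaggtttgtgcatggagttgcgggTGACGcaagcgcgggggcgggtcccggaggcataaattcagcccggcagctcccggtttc
Jun: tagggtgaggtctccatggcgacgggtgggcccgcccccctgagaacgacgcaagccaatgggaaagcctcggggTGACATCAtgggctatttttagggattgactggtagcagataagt
Junb: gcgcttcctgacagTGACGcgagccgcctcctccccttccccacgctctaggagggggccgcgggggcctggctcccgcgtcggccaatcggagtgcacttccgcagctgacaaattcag

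Both strands of the whole windows were searched. A gene with windows at several start sites, such as Egr2, was counted once if any of them held a match. TGACG was found in the windows of Junb, Fos, Egr2 and Fosb, beside 23.0% of 27025 genes with a window. TGANNTCA was found in those of Jun, Jund and Egr2, beside 15.9% of genes. A TGANNTCA whose middle letters are CG also holds TGACG, so the 2 searches can overlap. The AP-1 site TGANTCA was in none of the 7 windows, beside 8.97% of genes, and the CArG box bound by SRF was in that of Egr2, beside 1.81% of genes. These are matches of letters only. Sequence outside the windows was not searched, so a gene without a match may hold the element elsewhere.

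Transcript levels are given as FPKM, fragments scaled to transcript length and to library size, which can be set side by side between genes. Across the 9 libraries the levels ran in the order Junb, Jun, Ier2, Jund, Fosl1, Fosl2, Fos, Egr2, Fosb and Egr1, with means of 55.7, 46.8, 28.9, 20.5, 13.2, 6.43, 6.13, 0.808, 0.103 and 0.0109 FPKM. Most neighbours in this order were apart in every group. Fosl2 and Fos overlapped in the control and 10 µg/ml groups, and Ier2 and Jund overlapped at 100 µg/ml. The Jun family made up 81.3 to 84.2% of the summed Fos and Jun family FPKM in the 9 libraries, and this share had group means (± SD, n = 3) of 82.7% ± 0.602 in control, 82.1% ± 0.730 after the lower and 83.0% ± 1.28 after the higher dose.

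**Figure D1:**
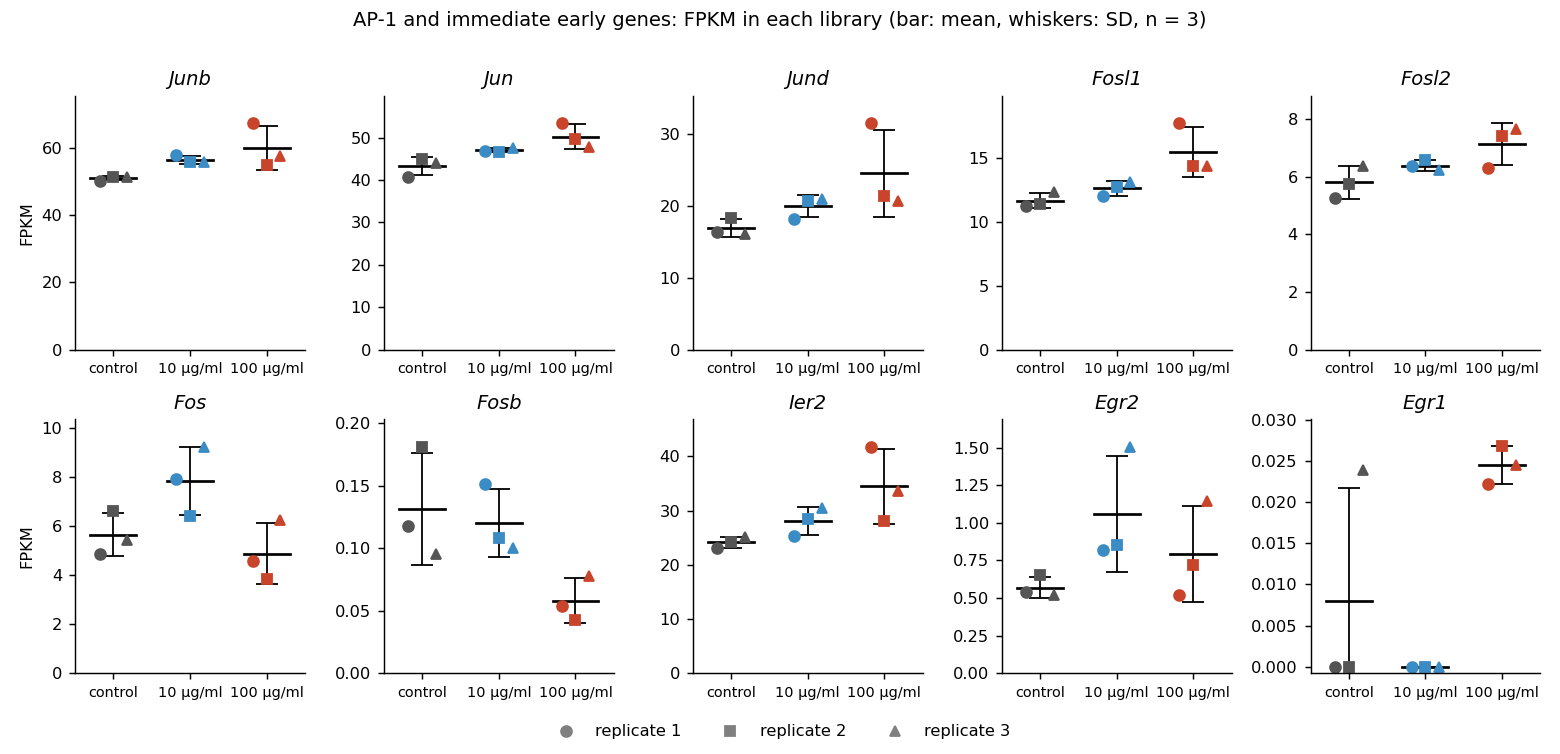
FPKM (vertical axes, linear) of the 10 genes in each library by group, with the group mean as a bar, the SD as whiskers (n = 3) and the replicate number as the marker shape. Jund ran from 20.7 to 31.5 FPKM and Ier2 from 28.0 to 41.8 FPKM at 100 µg/ml, in both cases with replicate 1 as the highest library, while Fos was lower in all 3 libraries at 100 µg/ml than in any at 10 µg/ml.

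Replicate 1 of the 100 µg/ml group stood apart from the other libraries in its GC-rich transcripts. The 369 tested genes with a transcript GC content of at least 60% had a median deviation from their own 9-library mean of 0.14 on log2(FPKM + 1) in that library. It was -0.08 to -0.03 in the controls, and -0.02 and -0.01 in the other libraries at 100 µg/ml. At 10 µg/ml it was -0.0011, 0.0217 and 0.0071, above all controls. All 10 genes described here lay above the median GC content of tested genes (49.3%): Jund had 67.2%, Junb 62.6% and Ier2 60.9%, and the median of the 7 tested genes was 58.5%. The differences of the 7 tested genes at 100 µg/ml are therefore given below with and without this library. Microglia and macrophage markers were at 1 FPKM or more for 9 of 11 genes, with sums of 1141 to 1329 FPKM in controls, 1156 to 1230 at 10 µg/ml and 1075 to 1231 at 100 µg/ml; Cx3cr1 and P2ry12 were under 1 FPKM throughout. Summed markers of neurons, astrocytes and stromal or endothelial cells stayed under 1 FPKM and those of oligodendrocytes between 0.817 and 1.44 FPKM, with Rbfox3, Snap25, Aqp4, Mog and Col1a2 listed at 0 in all libraries. Fewer cells expressing a gene and less RNA per cell cannot be told apart in such bulk samples.

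**Figure D2:**
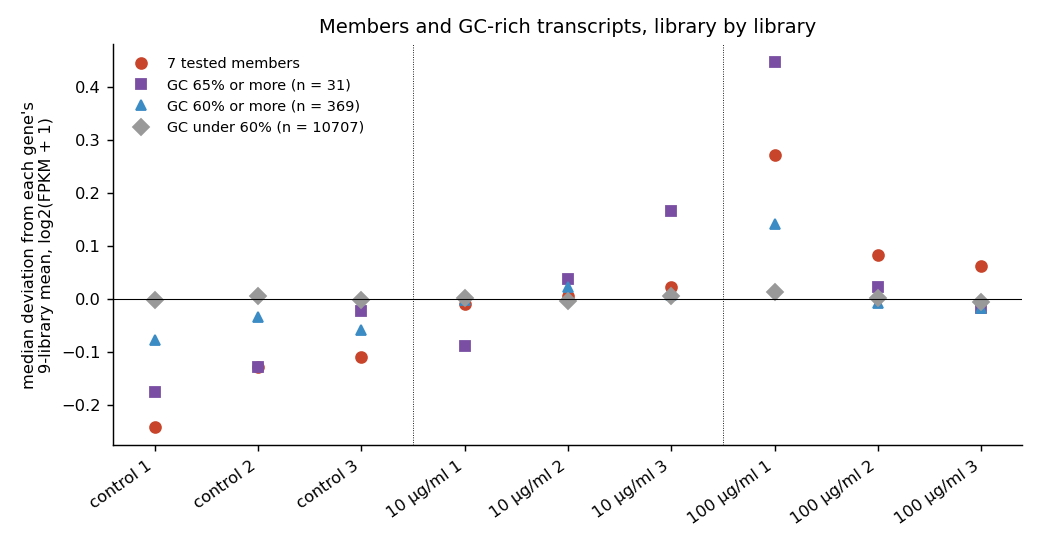
Median deviation from each gene's 9-library mean, on log2(FPKM + 1), for the 7 tested AP-1 and immediate early genes and for genes grouped by transcript GC content, in each library. The 7 genes lay lowest in the controls (-0.24 to -0.11) and highest in replicate 1 at 100 µg/ml (0.27), where the GC-rich genes were also highest.

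The effect of the higher dose was asked first. After 100 µg/ml, 6 of the 7 genes that entered the test had a higher mean than in control cells, by a factor of 1.16 for Jun to 1.45 for Jund, and Fos had a lower one. None of the 7 passed the threshold of an adjusted p of 0.05 (limma with Benjamini-Hochberg adjustment over 11161 genes, on log2(FPKM + 1)), beside 2.11% of all genes tested and 0.708% in the higher direction. At an unadjusted p under 0.05, 6 of the 7 were higher, beside 9.67% of all genes. All 3 libraries lay above all controls for 5 of the 7, beside 12.5% of all genes. The median difference of the 7 was 0.26 on the log2 scale, and that of all genes -0.0016. For the 369 genes with a transcript GC content of at least 60% it was 0.09, and for the 31 of at least 65%, Jund among them, it was 0.22. For the 10707 genes under 60%, the class that holds Jun, Fosl1, Fosl2 and Fos, it was -0.0041.

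Fosl1, the Fos family member known from invasive and migrating cells, gave the smallest p of the 7. It lay at 11.2, 11.4 and 12.3 FPKM in the controls, at 12.0, 12.7 and 13.1 FPKM after 10 µg/ml and at 17.7, 14.3 and 14.3 FPKM after 100 µg/ml. All 3 libraries at 100 µg/ml were above the other 6, and replicate 1 was the highest. The difference from control was 0.37 ± 0.09 (SE) on the log2 scale, 1.33 times the control mean, with an adjusted p of 0.0657 by limma. Without replicate 1 of the 100 µg/ml group it was 0.28, with an adjusted p of 0.0485, when 4.83% of all genes passed. Fosl1 (chr19:5447703-5455945, plus strand, GRCm38) overlaps Ccdc85b on the opposite strand, which was at a mean of 12.4 FPKM, and whether the counting used strand is not given in the sources used here.

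Fosl2, the other late Fos family member, was at 5.26, 5.76 and 6.37 FPKM in the controls, 6.35, 6.58 and 6.22 FPKM after 10 µg/ml and 6.29, 7.41 and 7.66 FPKM after 100 µg/ml. Its groups overlapped, since replicate 1 at 100 µg/ml lay below the third control, the reverse of the order seen for Fosl1. The difference was 0.26 ± 0.09 (SE) on the log2 scale with an adjusted p of 0.172 (limma), and 0.33 with an adjusted p of 0.0635 without that replicate.

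In the Jun family, the general AP-1 subunit Jun was at 40.8, 45.1 and 44.0 FPKM in the controls, 46.9, 46.6 and 47.5 FPKM after 10 µg/ml and 53.4, 49.6 and 47.7 FPKM after 100 µg/ml. Its 3 groups did not overlap, in the order of dose, with a difference between 100 µg/ml and control of 0.21 ± 0.06 (SE) on the log2 scale and an adjusted p of 0.103 (limma). Junb, which can oppose Jun at some promoters, was at 50.2, 51.2 and 51.1 FPKM in the controls, 57.7, 55.7 and 55.7 FPKM after 10 µg/ml and 67.2, 54.9 and 57.5 FPKM after 100 µg/ml. Both treated groups lay above all controls and overlapped each other. The difference of Junb between 100 µg/ml and control was 0.23 ± 0.07 (SE), with an adjusted p of 0.137 (limma). Without replicate 1 at 100 µg/ml these differences were 0.17 for Jun (adjusted p of 0.1005) and 0.14 for Junb (adjusted p of 0.0840).

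Jund, usually linked to restraint of growth, had the largest difference of the 7, with 1 library far from the rest. Its levels were 16.4, 18.3 and 16.1 FPKM in the controls, 18.2, 20.7 and 20.9 FPKM after 10 µg/ml and 31.5, 21.4 and 20.7 FPKM after 100 µg/ml. The 2nd and 3rd libraries at 100 µg/ml sat within 1 FPKM of the upper libraries at 10 µg/ml, and the 1st stood far above. The difference from control was 0.49 ± 0.14 (SE) with an adjusted p of 0.117 (limma), and 0.30 with an adjusted p of 0.0753 without replicate 1. Jund has the highest GC content of the 10 genes and overlaps the antisense gene Gm11175, at a mean of 3.62 FPKM, while Jun overlaps the antisense gene Junos, at a mean of 1.06 FPKM. The GC content of Jund is that of a GENCODE M21 transcript of 1668 bases. That transcript starts at 70698949, downstream of the start at 70697739 in the expression table, where the promoter window was set.

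Ier2, an immediate early gene whose product acts in the nucleus, was at 23.1, 24.1 and 25.2 FPKM in the controls, 25.3, 28.5 and 30.5 FPKM after 10 µg/ml and 41.8, 28.0 and 33.6 FPKM after 100 µg/ml. All treated libraries lay above all controls, by a narrow margin for replicate 1 at 10 µg/ml. The difference between 100 µg/ml and control was 0.48 ± 0.13 (SE), with an adjusted p of 0.0963 (limma). It was 0.33 with an adjusted p of 0.0944 without replicate 1 at 100 µg/ml, and 0.61 with an adjusted p of 0.0472 without replicate 2, which was its lowest library in that group. Ier2 and Junb lie 314057 bases apart on chromosome 8, which also carries Jund. The longest annotated transcript has a single exon for Jun, Junb, Jund and Ier2, as it has for 12.4% of tested genes.

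Fos, the prototype of the family, did not share this direction. It was at 4.88, 6.61 and 5.45 FPKM in the controls, 7.92, 6.43 and 9.22 FPKM after 10 µg/ml and 4.56, 3.83 and 6.27 FPKM after 100 µg/ml. The 10 and 100 µg/ml groups did not overlap, while each overlapped the controls. Between 100 µg/ml and control the difference was -0.19 ± 0.17 (SE), with a 95% interval from -0.58 to 0.21 and an adjusted p of 0.601 (limma). Without replicates 1, 2 or 3 at 100 µg/ml in turn it was -0.16, -0.06 and -0.35, and without control replicate 2 it was -0.09, with adjusted p of 0.684, 0.887, 0.319 and 0.876, so its size depended on single libraries.

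**Figure D3:**
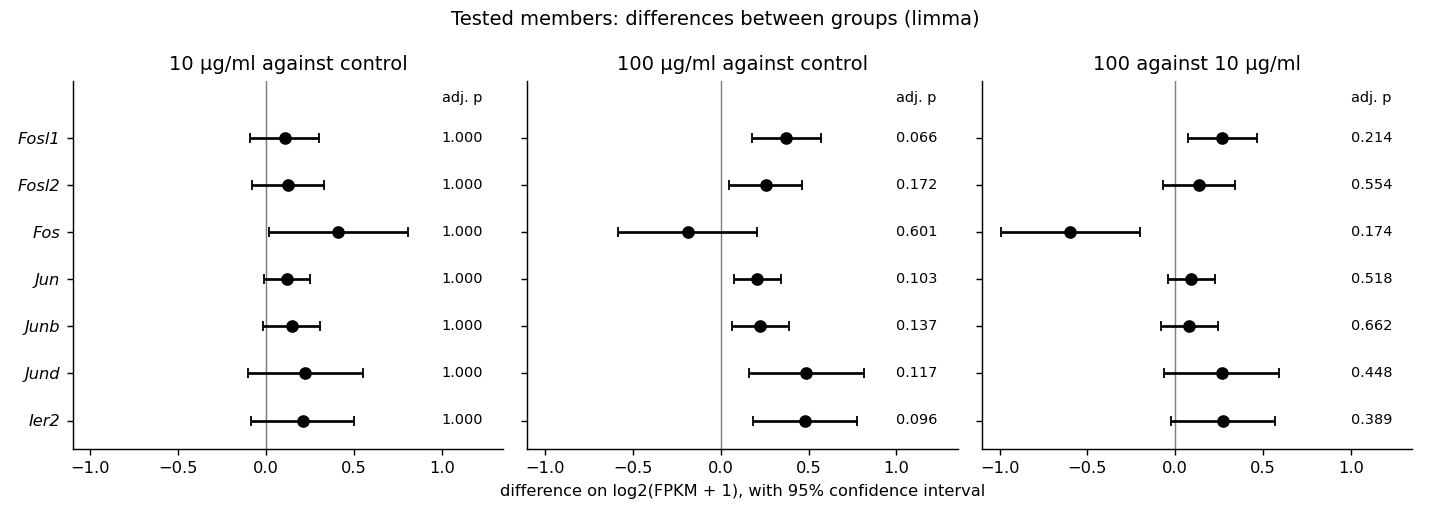
Differences on log2(FPKM + 1) with 95% confidence intervals (horizontal axes) and limma's adjusted p for the 7 tested genes in the 3 comparisons. At 100 µg/ml against control the intervals of all genes but Fos lay above 0, yet no adjusted p passed 0.05, and the lowest was 0.0657 for Fosl1.

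A correction of each library for transcript GC content and length was added after seeing the data, because of the GC-rich genes in replicate 1. At 100 µg/ml against control it gave a median of 0.30 for the 7 genes and brought 3 of them past the threshold, beside 6.51% of all genes: Fosl1 (0.33, adjusted p of 0.0206 by limma), Fosl2 (0.30, adjusted p of 0.0319) and Ier2 (0.40, adjusted p of 0.0417). The difference of Jund was 0.33 and that of Junb 0.13 after the correction. With the correction and without replicate 1, Fosl1 passed (0.28, adjusted p of 0.0421), beside 5.39% of all genes. All 6 genes with a higher mean kept a difference above 0 under each of these settings.

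The lower dose was compared with the same controls, so the results of both doses share any deviation of those 3 libraries. After 10 µg/ml all 7 tested genes had a higher mean than in control cells. Their median difference was 0.15 on the log2 scale, beside 0.0002 over all genes. GC-rich genes moved the same way, with medians of 0.06 at a transcript GC content of at least 60% and 0.13 at 65% or more. Genes under 60% had a median of -0.0009. None of the 7 passed the threshold, and neither did any other gene (0.0% of 11161, limma). At an unadjusted p under 0.05 there was 1 of the 7, Fos, beside 3.28% of all genes. Jun, Junb and Ier2 had all libraries above all controls, 3 of 7, beside 6.14% of all genes. Fos had the largest difference, 0.41 ± 0.17 (SE), with an unadjusted p of 0.0438 and an adjusted p of 1.0 (limma), and its replicate 2 lay below the highest control.

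Directly between the doses, Fos differed most. Its mean level (± SD, n = 3 each) was 4.88 ± 1.25 FPKM after the higher and 7.85 ± 1.396 FPKM after the lower dose, a difference of -0.60 ± 0.17 (SE) on the log2 scale, with an unadjusted p of 0.00773 and an adjusted p of 0.174 (limma). Fosl1 went the other way, by 0.27 ± 0.09 (SE), with an unadjusted p of 0.0131 and an adjusted p of 0.214. None of the 7 passed the threshold, beside 0.851% of all genes, and these 2 were the ones with an unadjusted p under 0.05, beside 14.3% of all genes. The libraries did not overlap for Fosl1, Jun and Fos, 3 of 7, beside 19.4% of all genes in either direction. Without replicate 1 at 100 µg/ml the difference of Fosl1 was 0.17 (adjusted p of 0.202) and that of Fos -0.57 (adjusted p of 0.208). That of Junb turned from 0.08 to -0.0044, those of Jund, Ier2 and Jun went from 0.26 to 0.08, from 0.27 to 0.13 and from 0.09 to 0.05, and that of Fosl2 went from 0.13 to 0.21.

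Since Fos and Fosl1 proteins compete for the same Jun partners, their transcript levels were also set against each other within each library. This comparison was not planned beforehand. It pairs genes already seen to differ in opposite directions between the doses in these same libraries, so its p-values are not separate evidence. The ratio of Fosl1 to Fos FPKM was 2.30, 1.72 and 2.26 in the controls, 1.51, 1.98 and 1.42 after 10 µg/ml and 3.88, 3.74 and 2.29 after 100 µg/ml. The third library at 100 µg/ml sat among the controls, just below their highest. An exact two-sided permutation test over libraries gave p = 0.1 between the doses, p = 0.2 for 100 µg/ml against control and p = 0.2 for 10 µg/ml against control, where 0.1 is the smallest p that 3 against 3 libraries allow. Fos made up 24.3% ± 2.91 of the Fos family FPKM in controls, 29.0% ± 3.74 after 10 µg/ml and 17.7% ± 3.88 after 100 µg/ml (SD, n = 3 each). The sum of the Jun family was 107 to 115 FPKM, 123 to 124 FPKM and 126 to 152 FPKM in the 3 groups, and that of the Fos family 21.5 to 24.2 FPKM, 25.8 to 28.6 FPKM and 25.6 to 28.6 FPKM.

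**Figure D4:**
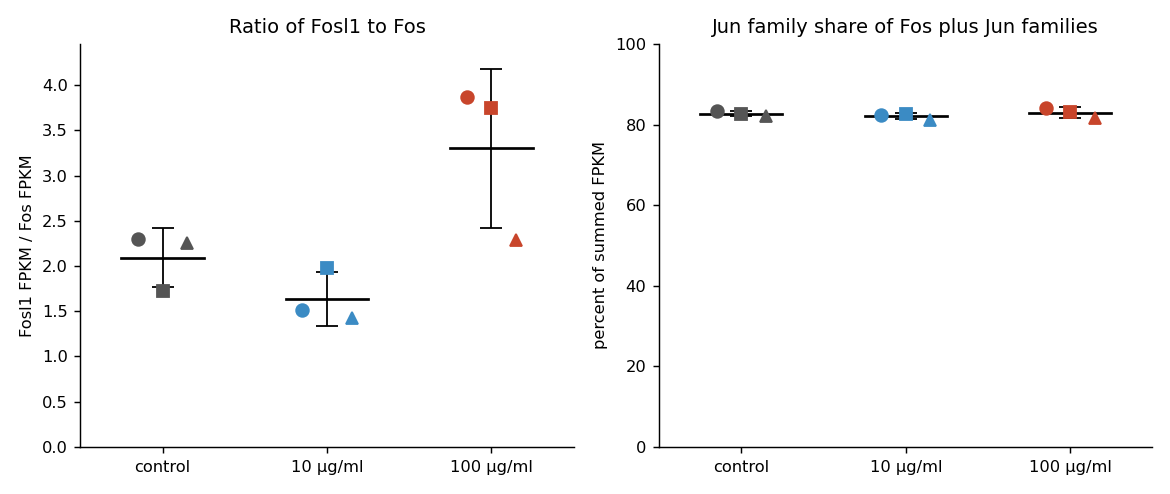
Left, the ratio of Fosl1 to Fos FPKM, and right, the Jun family share of summed Fos and Jun family FPKM (percent), in each library with group mean and SD (n = 3; marker shapes give replicates 1, 2 and 3 as circle, square and triangle). The ratio was highest in replicates 1 and 2 at 100 µg/ml (3.88 and 3.74), while the Jun share stayed between 81.3 and 84.2% in all libraries.

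The remaining 3 genes had a mean under 1 FPKM, were left out of the test and are given by their values. Fosb, whose product accumulates in brain cells after repeated stimulation, was at 0.117, 0.181 and 0.0950 FPKM in the controls, 0.151, 0.108 and 0.100 FPKM after 10 µg/ml and 0.0538, 0.0421 and 0.0778 FPKM after 100 µg/ml. The 100 µg/ml libraries were below the other 6, at 0.441 times the control mean. These levels stand for few molecules: at the depth estimated from the steps between low FPKM values, the 3 libraries of a group held about 19.7, 18.4 and 8.90 fragments. With no filter and a pseudocount of 0.01, added after seeing the data, the difference from control was -1.04 with an adjusted p of 0.2998 (limma). Fosb was among the genes that the study picked from these samples, so its direction is not independent evidence.

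Egr2, known for its part in myelin formation and in the tolerance of lymphocytes, was at 0.538, 0.651 and 0.519 FPKM in the controls, 0.819, 0.854 and 1.51 FPKM after 10 µg/ml and 0.522, 0.717 and 1.14 FPKM after 100 µg/ml. The 10 µg/ml libraries were above all controls, at 1.86 times their mean, and the 100 µg/ml libraries overlapped both groups. With no filter and a pseudocount of 0.01 the difference at 10 µg/ml was 0.83 with an adjusted p of 0.965 (limma). Egr1, the best known of the family, was listed at 0 in all 3 libraries at 10 µg/ml and in 2 controls, at 0.0239 FPKM in the other, and at 0.0223, 0.0269 and 0.0245 FPKM after 100 µg/ml. A value of this size stands for an estimated 1.4 to 1.5 fragments, so no difference of Egr1 was detectable at this depth.

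The genes nearest in pattern were taken by the root mean square difference of log2(FPKM + 1) over the 9 libraries, after centring each gene on its own mean. For Fosl1 they were Sys1 (0.041), Plekho1 (0.0448) and Dcun1d5 (0.0513), for Ier2 Angpt2 (0.0768), D030056L22Rik (0.082) and Sys1 (0.083), and for Jun Tcirg1 (0.0212), Nop9 (0.025) and Map7d1 (0.0263). Among the AP-1 and immediate early genes, Fosl1 ranked 8 and Jund 11 of all tested genes in nearness to Ier2, and Junb ranked 98 in nearness to Jun. Fos was among the least alike, at ranks 10590, 10300 and 10501 from Fosl1, Ier2 and Jun.

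Around these genes, 75 further genes of the pathway were counted in 5 lists, of which 63 entered the test. After 100 µg/ml against control 2 were called higher and 3 lower, with a median difference of -0.03 over the 63, beside 2.11% of all genes called. Of all 11161 genes tested, 79 (0.708%) were called higher and 157 lower, which stands beside the counts of each list below. After 10 µg/ml none was called, and between the doses 1 was called higher and 4 lower, beside 0.851% of all genes.

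Among other immediate early genes, 1 of 12 tested was called higher, beside 0.708% of all genes, and none lower. It was Ier5, a stress-inducible relative of Ier2, at 30.5, 30.2 and 28.1 FPKM in the controls, 29.5, 33.0 and 34.4 FPKM after 10 µg/ml and 45.0, 38.8 and 38.8 FPKM after 100 µg/ml. All libraries at 100 µg/ml lay above the other 6, with a difference from control of 0.45 ± 0.08 (SE) and an adjusted p of 0.0281 (limma). Among upstream kinases and factors, 1 of 20 rose: Atf1, a CREB family activator of Fos, was at 73.4, 72.8 and 74.4 FPKM in the controls and 100, 101 and 88.7 FPKM after 100 µg/ml. The groups were far apart, with a difference of 0.39 ± 0.06 (SE) and an adjusted p of 0.0143 (limma), and it was also higher than at 10 µg/ml, by 0.31 with an adjusted p of 0.0475.

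Among the leucine zipper partners 1 of 12 fell against control and none rose. Maf, a large Maf factor of macrophages, was at 30.4, 30.5 and 32.1 FPKM in the controls and 22.2, 22.4 and 20.5 FPKM after 100 µg/ml, a drop of -0.50 ± 0.06 (SE) with an adjusted p of 0.00962 (limma), with no overlap. It was lower than at 10 µg/ml by a like amount (-0.52, adjusted p of 0.0138). Atf3, the leucine zipper factor induced by stress, stood at 92.1 ± 8.54 FPKM after 100 µg/ml and 86.6 ± 2.12 FPKM in control (SD, n = 3 each), with an adjusted p of 0.631. Atf3 was picked after its values were seen.

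Of the 8 genes for transcript decay, protein turnover and corepression, 1 fell against control: Zfp36l1, an AU-rich element binding protein that speeds mRNA decay, was at 13.1, 13.4 and 11.2 FPKM in the controls and 7.31, 8.34 and 7.96 FPKM after 100 µg/ml. The groups did not overlap, with a difference of -0.61 ± 0.11 (SE) and an adjusted p of 0.0309 (limma). Its relative Zfp36 was lower at 100 than at 10 µg/ml (-0.44, adjusted p of 0.0448). Of 11 tested AP-1 target genes, Mmp9, a matrix metalloproteinase, was lower at 100 µg/ml than in control (-0.37, adjusted p of 0.0411) and than at 10 µg/ml (-0.50, adjusted p of 0.0249), at 13.1 to 14.2 FPKM in controls, 14.1 to 15.6 FPKM at 10 µg/ml and 9.27 to 10.9 FPKM at 100 µg/ml. No other target was called.

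Most of these calls did not hold when single libraries were left out, which also lowers the degrees of freedom. Calls were lost even without a library outside the comparison, where the difference itself stayed the same. That of Mmp9 against control stayed at -0.37 without replicate 1, 2 or 3 at 10 µg/ml (adjusted p of 0.082, 0.067 and 0.069, limma). When each of the 9 libraries was left out in turn, the call against control was lost in 6 fits for Ier5 and Zfp36l1, in 8 for Mmp9, in 2 for Atf1 (without control replicate 1 or 2, adjusted p of 0.0660 and 0.0804) and in 1 for Maf (without control replicate 2, adjusted p of 0.0561). Mmp9 kept its call against control without replicate 1 at 100 µg/ml alone. Without that replicate all 5 calls against control remained, with differences of 0.38 for Ier5, 0.36 for Atf1, -0.51 for Maf, -0.56 for Zfp36l1 and -0.41 for Mmp9 (adjusted p of 0.0117 to 0.0485). Ier5 lost its call without any 1 of the controls, replicate 2 at 10 µg/ml or replicate 2 or 3 at 100 µg/ml (adjusted p of 0.0534 to 0.105), and Zfp36l1 without any 1 of the controls, replicate 1 at 10 µg/ml or replicate 2 or 3 at 100 µg/ml (0.0532 to 0.136). Between the doses the call was lost in 3 of 9 such fits for Maf (without replicate 1 or 2 at 10 µg/ml or replicate 3 at 100 µg/ml), in 7 for Zfp36 (all but those without control replicate 3 or replicate 1 at 100 µg/ml), and in 8 each for Mmp9 (all but the one without replicate 1 at 100 µg/ml) and Atf1 (all but the one without replicate 3 at 100 µg/ml), with adjusted p of 0.0503 to 0.182. Of the 9 microglia and macrophage markers tested, all had a lower mean at 100 µg/ml than in control (median difference -0.20), and their part in the results above was not tested. Gapdh, a housekeeping gene, was at 29.3 ± 2.69 FPKM in control and 30.9 ± 3.49 FPKM after 100 µg/ml (SD, n = 3 each; adjusted p of 0.753).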

How the data were processed

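The FPKM of 9 poly(A) RNA libraries of BV2 cells were analysed from 1 gene table. The authors filtered reads by quality, aligned them with TopHat (version not given in the sources used here) and ran Cufflinks 2.1.1 with Ensembl release 77 annotation, including multi-read and fragment bias correction, to give the deposited FPKM. They tested with Cuffdiff, which needs alignments, so limma 3.58.1 (R 4.3.3) was used here on log2(FPKM + 1). Fold changes on this scale understate changes of low genes. A gene was tested if its mean over the 9 libraries reached 1 FPKM (11161 genes), with lmFit on group means over all 3 groups, eBayes with trend and Benjamini-Hochberg adjustment at 0.05. The script was checked on simulated data. Deposited FPKM sums were 473547 to 522812 per library. Counts were not used, and depth was estimated at 12.0 to 15.1 M fragments from the steps of low values. This is approximate, since 79.5% of those values came within 0.25 of a whole fragment, and no count test was run.

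The 10 genes and all lists were chosen with earlier results of these data known. All 10 are named. Of each list, genes with an adjusted p under 0.05 in any comparison are named, up to 8 by smallest p, and for the 3 members with the smallest p the 3 nearest genes. Gapdh and cell type markers served as checks. Some results of the lists and markers are not reported here. Coordinates are on GRCm38, with GC content, length and overlaps from GENCODE M21. The labels give groups the same replicate numbers, but correlations of same-numbered libraries ran from -0.09 to 0.15, so the numbers did not pair them. Alternatives were other pseudocounts, filters, rescaling, a replicate block, fits without trend or on 6 libraries, and leaving out each library. Python 3.11.15, pandas 2.3.3, numpy 2.4.6 and scipy 1.17.1 were used for summaries and exact tests.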

Additional observations from a re-analysis of the deposited data

How the results depend on the processing

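Under each of 21 alternatives, the median of the members tested (7, or all 10 where no filter was set) kept its direction in all 3 comparisons: 0.21 to 0.35 at 100 µg/ml against control (0.35 over 10 genes with no filter and a pseudocount of 0.01, against 0.26 over 7 as reported and 0.29 over the same 7 at that pseudocount), 0.09 to 0.18 at 10 µg/ml, and 0.08 to 0.21 between the doses. Called members at 100 µg/ml against control were 0 as reported, 3 after the GC and length correction, 1 with that correction and without replicate 1 at 100 µg/ml, and 0 to 1 when 1 library was left out. Between the doses the difference of Junb turned from 0.08 to -0.0044 without replicate 1 at 100 µg/ml (-0.0044 to 0.14 when 1 library was left out), and no other member reversed.

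Called genes of the 5 pathway lists at 100 µg/ml against control, 5 as reported, were 2 with no filter, 2 with no filter and a pseudocount of 0.01, 0 on the 6 libraries compared, 12 after the GC and length correction, 10 with that correction and without replicate 1, and 0 to 7 when 1 library was left out. Between the doses, 5 as reported, they were 3 with no filter, 3 without the trend, 0 on the 6 libraries compared and 0 to 4 when 1 library was left out. The cause was not tested, except that leaving out a library or a group also lowers the degrees of freedom. With replicate number as a block, although not every library correlated best with its own number, list genes called were 3 against control and 0 between the doses, members called were 0 in all 3 comparisons, and all genes called against control went from 236 to 106 and between the doses from 95 to 13.

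All genes called against control at 100 µg/ml were 22 on the 6 libraries compared, 727 after the GC and length correction, 602 with it and without replicate 1, and 31 to 539 when 1 library was left out. Between the doses they were 6, 282, 247 and 8 to 191 in the same order. At 10 µg/ml against control they were 0 as reported, 4 with no filter, 15 with no filter and a pseudocount of 0.01, and 0 to 2 when 1 library was left out. After quantile or median-of-ratios rescaling the median of all genes lay between -0.0071 and 0.0126 on the log2 scale.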

Other observations

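A pair of immediate early genes outside the rule for named genes was picked after the values were seen. Ier3, a stress-induced gene that acts on cell survival, was at 24.8, 25.3 and 25.5 FPKM in the controls, 28.4, 23.4 and 30.8 FPKM after 10 µg/ml and 44.0, 31.4 and 36.3 FPKM after 100 µg/ml, above the other 6 libraries in each of the 3 at 100 µg/ml, with replicate 1 again the highest. Its difference from control was 0.53 ± 0.13 (SE) with an adjusted p of 0.0695 (limma). Myc, the growth factor-responsive transcription factor, went the other way, at 2.03, 2.15 and 2.11 FPKM in the controls, 2.26, 2.77 and 2.21 FPKM after 10 µg/ml and 1.46, 1.36 and 1.34 FPKM after 100 µg/ml. Its groups did not overlap, with a difference of -0.38 ± 0.10 (SE) from control (adjusted p of 0.0963, limma) and of -0.51 from 10 µg/ml (adjusted p of 0.0690). Neither passed the threshold.

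Several immediate early genes known from neurons and from early macrophage responses were scarcely present at 12 h. Arc, Nr4a3 and Egr3 were at means of 0.0342, 0.158 and 0.438 FPKM over the 9 libraries, beside 2.70 FPKM for Nr4a1 and 60.1 FPKM for Klf6. Klf6 was at 59.7 ± 1.44, 60.1 ± 2.48 and 60.5 ± 0.620 FPKM (SD, n = 3 each) in the control, 10 and 100 µg/ml groups.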
